A study of Homo sapiens with 6 samples.

Results

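The complement genes described here are 9 genes of complement components and regulators with ties to macular degeneration, namely C3, C1R, C1S, CFB, CFI, CD46, CD55, CD59 and CLU. They were taken from the files by symbol, with no threshold on a measured value, and all 9 have a row among the 33496 genes of the deposited files. Their RNA-seq values come from 6 libraries of wild-type ARPE-19, a human cell line of retinal pigment epithelium (RPE). The cells of all 6 libraries received erastin (5 μM for 24 h), an inhibitor of cystine import that sets off ferroptosis, an iron-dependent cell death driven by lipid peroxides. Erastin was given alone in 3 libraries (Era), and after a pretreatment of 1 h with 10 μM vitamin K1 (VK1) in the other 3 (Era+VK). No library without erastin is part of the comparison, so the response to erastin itself is not measured by any value below. In the labels the number after ARPE counts up by sample, but every title gives ARPE-19. The labels do not say that the libraries of a group were separate cultures. The study describes its experiments as independent repeats in general terms, without naming the cultures behind each library. P-values therefore measure the spread between these libraries, part of which may be technical. In bulk RNA of this kind, fewer cells that express a gene and less RNA per cell cannot be told apart.

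Complement is a cascade of plasma and locally made proteins that tags surfaces and can end in a pore in the cell membrane. The classical pathway starts with the proteases C1r and C1s, the alternative pathway with C3 and factor B, and both meet at the cleavage of C3. Host cells hold the cascade back with soluble proteins, such as factor I, which cuts C3b, and clusterin, which blocks the assembling pore, and with the membrane proteins CD46, CD55 and CD59. RPE cells make several of these proteins, and variants in complement genes are among the best known inherited contributions to age-related macular degeneration. Their transcription is known to respond to interferons and other inflammatory signals.

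The values are FPKM, that is, fragments counted per transcript length and relative to the size of the library. They take gene length into account, so that levels of different genes can be set side by side. Between 24143 and 24601 genes per library had a value above 0. The depth of the libraries is unknown, since no whole-read steps were found among the low values. Of all FPKM in a library, the 9 complement genes together held 0.0454% to 0.051%. As to the label of the cells, KRT8 (170.77 to 208.81 FPKM), KRT18, OTX2 (27.5 to 31.35 FPKM) and MITF were expressed in every library, PMEL and RDH5 were near 1 to 2.5 FPKM, and BEST1 ranged from 0.6 to 56.98 FPKM with overlapping groups. RPE65, the isomerase that defines mature RPE, did not exceed 0.02 FPKM, and DCT, TYR and RLBP1 did not exceed 0.29 FPKM. Transcripts known from erythroid cells were present in Era+VK replicates 2 and 3, where the 22 erythroid markers of the files summed to 247.4 and 241.5 FPKM, against 6.08 to 6.95 FPKM in the other 4 libraries, of which EPOR made up 5.48 to 6.62 FPKM. The markers at 1 FPKM or more in any library were HBG1, HBG2, HBE1, HBA1, HBA2, HBZ, GATA1, NFE2, KLF1 and EPOR, while HBB, SLC4A1 and EPB42 stayed at 0.04 FPKM or less. No marker of monocytes and macrophages, of hepatocytes or of endothelial cells reached 1 FPKM in any library (9, 3 and 7 markers with a row in the files).

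Promoter sequences of RefSeq (GRCh38.p14), which run from 250 bases before to 50 bases after an annotated start, were found for 6 of the 9 genes, namely C1R, CD46, CD55, CD59, CFB and CFI. The promoters of the most and the least abundant gene are shown, since these 2 genes mark the ends of the range of levels described below. Capitals mark matches to the gamma-activated site, GAS (TTCNNNGAA), or to the interferon-stimulated response element, ISRE (GAAA, 2 free bases and GAAA again), on either strand. The CD59 promoter lies at chr11:33736430-33736729 on the minus strand (1 of 4 starts listed for this gene), and that of CFB at chr6:31945845-31946144 on the plus strand.
CD59: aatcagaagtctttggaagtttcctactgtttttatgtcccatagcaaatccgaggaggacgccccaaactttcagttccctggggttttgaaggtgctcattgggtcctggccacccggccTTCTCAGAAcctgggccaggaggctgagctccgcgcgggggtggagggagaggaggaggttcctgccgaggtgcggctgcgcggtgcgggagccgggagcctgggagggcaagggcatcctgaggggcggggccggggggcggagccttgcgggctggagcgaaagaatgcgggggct
CFB: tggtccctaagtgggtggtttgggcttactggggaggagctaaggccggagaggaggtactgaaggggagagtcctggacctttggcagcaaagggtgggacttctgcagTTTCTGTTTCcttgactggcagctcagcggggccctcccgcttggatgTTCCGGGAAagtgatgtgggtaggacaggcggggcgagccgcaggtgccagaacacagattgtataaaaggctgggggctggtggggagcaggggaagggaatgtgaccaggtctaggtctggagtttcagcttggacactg
The CD59 sequence holds a GAS match 128 bases before the start. That of CFB holds a GAS match 92 bases and an ISRE match 140 bases before the start, the latter on the opposite strand. Of the 11 promoters listed for the 6 genes, 4 held a GAS match (C1R, CFB and 2 overlapping ones of CD59) and 1 an ISRE match (CFB), while 7.66% and 3.57% of all 35116 promoters held these motifs. The core of the cAMP response element that ATF4 and related factors bind (TGACG) was matched in 4 of the 11 promoters (C1R, CD55 and 2 overlapping ones of CD46), and in 24.6% of all promoters. A match describes the letters only and is not a measured binding site.

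The levels of the 9 genes spanned about 2 orders of magnitude, with the membrane regulator CD59 at the top and CFI and CFB at the bottom. CD59, a GPI-anchored protein that stops the last step of pore assembly, was the most abundant (mean of 49.3 FPKM over the 6 libraries) and in every library stood above at least 94.0% of the 11981 genes that were tested for differences below (those averaging 1 FPKM or more). It was followed by CLU (17.0 FPKM), CD46 (13.2 FPKM), CD55 (10.7 FPKM), C1R (10.6 FPKM), C1S (9.05 FPKM), C3 (2.04 FPKM), CFI (0.743 FPKM) and CFB (0.51 FPKM). Over the 6 libraries the ranges of CD59, CLU, CD46 and CD55 did not touch. CD55 and C1R, with 10.04 to 11.71 and 9.53 to 12.16 FPKM, did not differ beyond their spread, CD55 being the higher of the pair in 4 of 6 libraries. The ranges of C1R and C1S overlapped as well, and so did those of CFI and CFB, although C1R was above C1S and CFI above CFB in 6 of 6 libraries. C1S was apart from C3, and C3 from CFI.

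**Figure D1:**
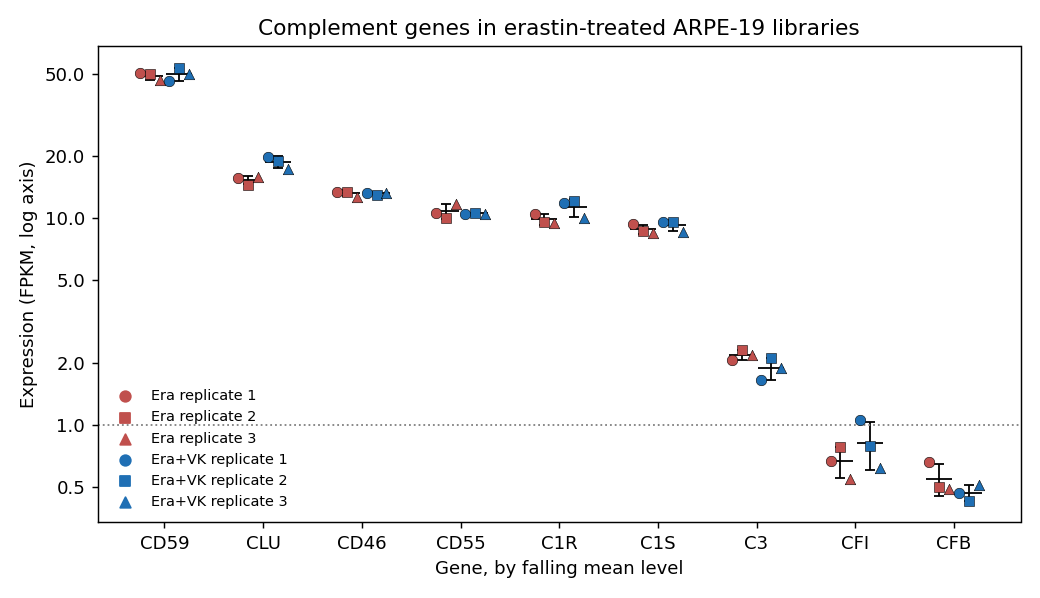
Expression of the 9 complement genes in FPKM (log axis) in each library, with the mean and standard deviation of each group as black bars (n = 3), and a dotted line at 1 FPKM. CD59 lies near 50 FPKM, CFI and CFB lie near or under 1 FPKM, and the groups are apart in CLU alone.

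The other complement genes were mostly low. Of a list of 56 complement genes, including the 9, 37 had a row in the files and 12 had a mean of at least 1 FPKM. Of the 27 components, the C1 proteases and C3 were the 3 that reached this level. C2, a substrate of C1s and the counterpart of factor B, did not exceed 0.09 FPKM, and C5, which starts the terminal pathway, ranged from 0.32 to 0.42 FPKM. C4A and C4B, also substrates of C1s, were listed at 0.26 to 0.38 and 0.21 to 0.24 FPKM, values that are uncertain because the copies are nearly identical and share reads. CFD, the protease that activates factor B, was at 0.17 to 0.37 FPKM, and properdin (CFP) at 0.07 FPKM or less. Among soluble regulators, VTN (vitronectin, 6.24 to 8.47 FPKM), SERPING1 (C1 inhibitor, 1.76 to 2.61 FPKM) and C4BPB (1.15 to 1.67 FPKM) had a mean of at least 1 FPKM, whereas the partner chain C4BPA was at 0 in every library. Of the receptors, C1QBP, a mostly mitochondrial protein that also binds C1q, was at 34.05 to 41.65 FPKM, and the anaphylatoxin receptors C3AR1 and C5AR1 stayed at 0.40 and 0.27 FPKM or less. The genes of the C1q chains and of C6, C7, C8A, C8B and C9 are among the listed genes without a row, so no level can be given for them.

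**Figure D2:**
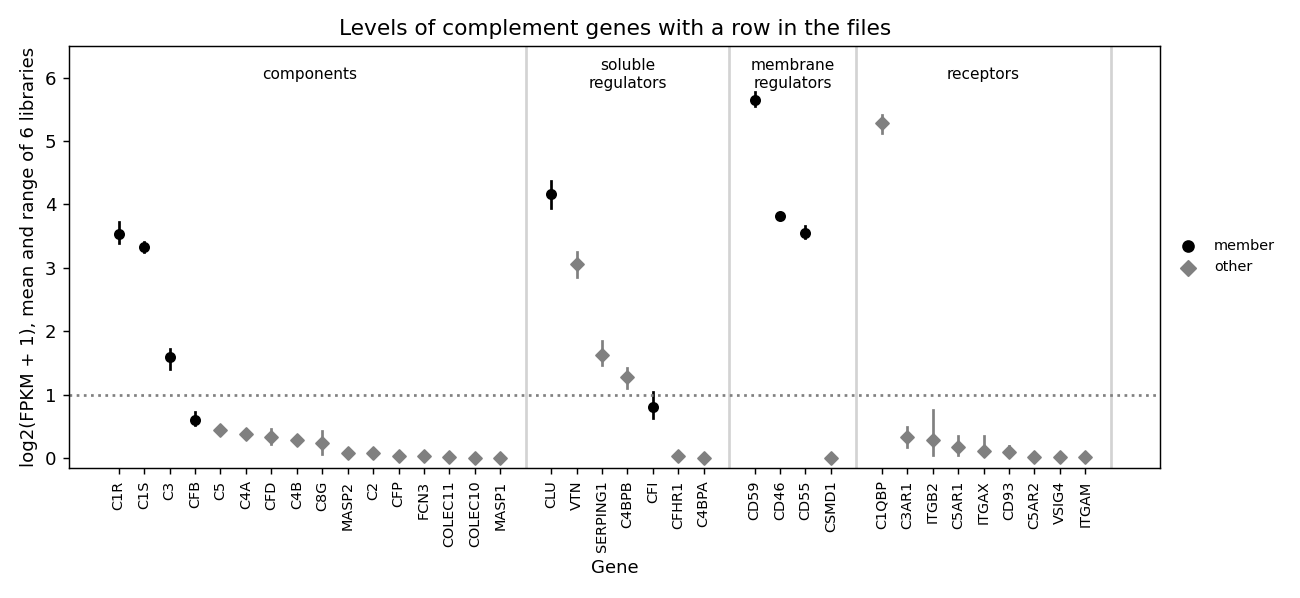
Levels of complement genes with a row in the files, as log2(FPKM + 1), with the mean (symbol) and the range (line) over the 6 libraries. The dotted line marks 1 FPKM, above which lie 3 components, 4 soluble regulators, 3 membrane regulators and 1 receptor. A further soluble regulator is counted in the text but not drawn.

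VK1 pretreatment before erastin was compared with erastin alone in limma on log2(FPKM + 1), with Benjamini-Hochberg adjustment over the 11981 genes tested. Fold changes refer to this scale, on which the added 1 FPKM makes those of low genes smaller. Of the 9 genes, 7 had a mean of at least 1 FPKM and were tested, and 0 had an adjusted p under 0.05 in limma, while 0.618% of all genes tested did (0.134% as higher in Era+VK and 0.484% as lower). At an unadjusted p under 0.05 there were 2 genes, CLU and C1R, while 15.8% of all genes tested passed this level. In 1 gene, CLU, the groups did not overlap, against 22.1% of all genes tested (15.1% with Era+VK higher and 7.04% with Era+VK lower). The median log2 fold change of the 7 genes was 0.02, and that of all genes tested 0.03. CFI and CFB, with means under 1 FPKM, were not tested in limma.

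CLU encodes clusterin, a secreted chaperone that binds the assembling membrane pore. The gene (ENSG00000120885) lies on chromosome 8 of GRCh38 from 27596917 to 27615031 on the minus strand, by GENCODE 29. Its expression was 15.58, 14.44 and 15.79 FPKM in Era replicates 1, 2 and 3, and 19.73, 19.0 and 17.37 FPKM in Era+VK replicates 1, 2 and 3. Each Era+VK library was above each Era library, and the highest value was that of Era+VK replicate 1, which lacks the erythroid transcripts. The part of erythroid RNA in the CLU values of Era+VK replicates 2 and 3 was not tested. The means were 15.3 ± 0.726 and 18.7 ± 1.21 FPKM (SD, n = 3 each). The log2 fold change was 0.28 (standard error 0.06, 95% interval 0.14 to 0.41), with an adjusted p of 0.0972 in limma, above the threshold of 0.05. An exact permutation test gave p = 0.1 (two-sided), the lowest p that 3 against 3 libraries can give. Era+VK replicate 1 alone was 0.35 above Era on the log2 scale, with an adjusted p of 0.149 in limma, where the 3 Era libraries alone give the spread and the lone library is assumed to vary like them.

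**Figure D3:**
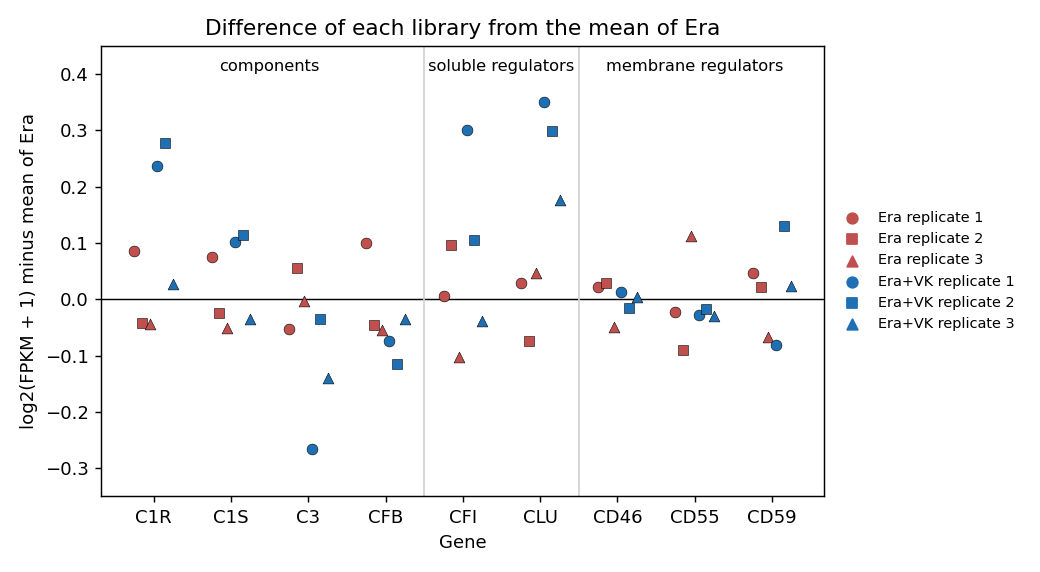
Difference of each library from the mean of the Era libraries in log2(FPKM + 1) for the 9 complement genes, grouped as components, soluble regulators and membrane regulators. The Era+VK libraries of CLU lie between 0.18 and 0.35, above all Era libraries, and those of the other genes overlap with Era.

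C1R and C1S encode the paired proteases of the C1 complex, in which C1r activates C1s. The genes are neighbours on chromosome 12, with C1S (ENSG00000182326, 6988259 to 7071032) on the plus strand and C1R (ENSG00000159403, 7080199 to 7092607) on the minus strand, 9.2 kb apart. C1R was at 10.52, 9.54 and 9.53 FPKM in Era and at 11.79, 12.16 and 10.06 FPKM in Era+VK. The groups overlapped, since Era+VK replicate 3 was below Era replicate 1. Its log2 fold change was 0.18 (standard error 0.08, 95% interval 0.01 to 0.36, unadjusted p = 0.0441 and adjusted p = 0.304 in limma). C1S was at 9.35, 8.67 and 8.49 FPKM in Era and at 9.55, 9.64 and 8.59 FPKM in Era+VK, also with overlap. Its log2 fold change was 0.06 (95% interval -0.08 to 0.20, adjusted p = 0.666 in limma), and it lay between 0.03 and 0.11 with 1 library left out. Both genes had their highest values in Era+VK replicates 2 and 1 and then in Era replicate 1. The ratio of C1R to C1S FPKM within a library was 1.13, 1.10 and 1.12 in Era and 1.23, 1.26 and 1.17 in Era+VK, so that the groups did not overlap in the ratio (two-sided exact permutation test, p = 0.1, the lowest that can be reached, and 0.6 after Benjamini-Hochberg adjustment over the 6 ratios computed). In GENCODE 29 C1R overlaps with C1RL, and C1S with EMG1 and LPCAT3, so that reads in the overlaps may have been shared between them.

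C3, the protein on which all pathways meet, was at 2.07, 2.31 and 2.18 FPKM in Era and at 1.65, 2.11 and 1.89 FPKM in Era+VK. The lowest Era value was below the highest Era+VK value, so the groups overlapped. C3 (ENSG00000125730, chromosome 19, 6677704 to 6730562) had a log2 fold change of -0.15 (standard error 0.08, 95% interval -0.32 to 0.03, adjusted p = 0.395 in limma), and of -0.09 without Era+VK replicate 1. CFB, the protease of the alternative pathway convertase (ENSG00000243649, chromosome 6, 31945650 to 31952084), was at 0.66, 0.50 and 0.49 FPKM in Era and at 0.47, 0.43 and 0.51 FPKM in Era+VK. The groups overlapped, and Era replicate 1 was the highest (two-sided exact permutation test, p = 0.3). The CFB gene overlaps the end of C2, which lies before it on the same strand. The ratio of CFB to C3 was 0.253 ± 0.0569 in Era and 0.253 ± 0.0431 in Era+VK (SD, n = 3 each; exact permutation test, two-sided p = 1.0).

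CFI encodes factor I, the protease that inactivates C3b together with cofactors such as CD46 (ENSG00000205403, chromosome 4, 109740694 to 109802179). It was at 0.67, 0.78 and 0.55 FPKM in Era and at 1.05, 0.79 and 0.62 FPKM in Era+VK. The groups overlapped, and the value of Era+VK replicate 1 was the only one above 1 FPKM (exact permutation test, two-sided p = 0.4). The ratio of CFI to C3 ranged from 0.252 to 0.338 in Era and was 0.636, 0.374 and 0.328 in Era+VK, with overlapping groups (exact permutation test, two-sided p = 0.2).

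The 3 membrane regulators had the smallest differences between the groups. CD46, the membrane cofactor of factor I (ENSG00000117335, chromosome 1, 207752057 to 207795513), was at 13.36, 13.44 and 12.67 FPKM in Era and at 13.28, 13 and 13.19 FPKM in Era+VK. All Era+VK values fell within the range of Era. The log2 fold change was 0.0004 with a 95% interval of -0.10 to 0.10 (adjusted p = 0.998 in limma), which in linear terms of FPKM + 1 covers 0.933-fold to 1.07-fold, and its sign turned under several alternatives given in the closing section. CD55, a GPI-anchored protein that takes apart the C3 convertases, lies 365.3 kb before CD46 on the same strand (ENSG00000196352, 207321376 to 207386804). Its values were 10.58, 10.04 and 11.71 FPKM in Era and 10.53, 10.62 and 10.52 FPKM in Era+VK. The Era+VK libraries lay close together (SD 0.0551 FPKM, n = 3), within the wider range of Era (SD 0.852 FPKM, n = 3). The log2 fold change of CD55 was -0.02 (95% interval -0.16 to 0.11, adjusted p = 0.873 in limma). CD59 (ENSG00000085063, chromosome 11, 33703010 to 33736491) was at 50.47, 49.62 and 46.58 FPKM in Era and at 46.14, 53.58 and 49.66 FPKM in Era+VK. Its lowest and its highest library were both in Era+VK, and its log2 fold change was 0.02 (95% interval -0.12 to 0.17, adjusted p = 0.886 in limma). CD59 is also abundant on erythroid cells, and the 2 libraries with erythroid transcripts had 53.58 and 49.66 FPKM against 46.14 FPKM in the remaining Era+VK library. The part of erythroid RNA in this difference was not tested.

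Set together, the 3 membrane regulators summed to between 70.0 and 77.2 FPKM per library and the 4 components C3, C1R, C1S and CFB to between 20.7 and 24.3 FPKM. The ratio of these sums was 3.29, 3.48 and 3.43 in Era and 2.98, 3.17 and 3.49 in Era+VK. The groups overlapped, with the highest ratio of all in Era+VK replicate 3 (two-sided exact permutation test, p = 0.4). The ratios of CD59 to CD55 and of CD46 to CD55 overlapped between the groups as well (exact permutation test, two-sided p = 0.7 and p = 1.0).

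Of the 28 further complement genes with a row in the files, 5 were tested and 0 had an adjusted p under 0.05 in limma, with 2 under 0.05 unadjusted. Among all genes tested the shares were 0.618% adjusted and 15.8% unadjusted. The groups did not overlap in 15.1% of all genes tested with Era+VK higher, and in 7.04% with Era+VK lower. VTN, which like clusterin binds the assembling pore, was at 6.73, 7.05 and 6.24 FPKM in Era and at 8.33, 8.47 and 7.32 FPKM in Era+VK. Its groups did not overlap, and it was 0.24 higher on the log2 scale in Era+VK (standard error 0.07), with an adjusted p of 0.172 in limma. SARM1 lies over VTN on the opposite strand in GENCODE 29, and without a stated strand setting their reads cannot be told apart. C4BPB, a chain of the C4b-binding protein, was at 1.60, 1.44 and 1.67 FPKM in Era and at 1.15, 1.41 and 1.26 FPKM in Era+VK. It was lower in every Era+VK library, and its log2 fold change was -0.18 with a standard error of 0.07 (adjusted p of 0.307 in limma). SERPING1, which inhibits C1r and C1s, had overlapping groups and a difference of 0.19 on the log2 scale, with a 95% interval of -0.04 to 0.41 and an adjusted p of 0.388 in limma. C1QBP had a difference of -0.13 on the log2 scale and overlapped as well (adjusted p of 0.426 in limma).

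**Figure D4:**
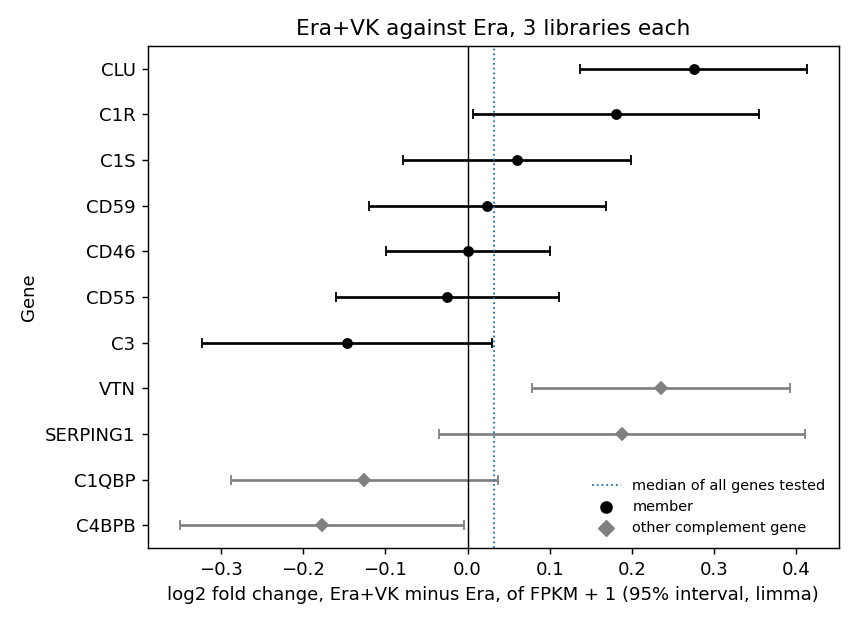
Log2 fold change of Era+VK against Era, on log2(FPKM + 1), with 95% intervals from limma, for the 7 tested members (circles) and 4 further complement genes (diamonds), with the median of all genes tested as a dotted line. The intervals of CLU (0.14 to 0.41), C1R, VTN and C4BPB leave out 0 before adjustment, and none of the 11 genes drawn had an adjusted p under 0.05.

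Receptors, kinases, transcription factors and feedback inhibitors of signals known to act on complement genes were compared as a list of 24 genes. Of the 18 tested, 0 had an adjusted p under 0.05 in limma and 1 an unadjusted p under 0.05, against 0.618% and 15.8% of all genes tested. Their median log2 fold change was 0.07. The largest differences were those of IRF9, which forms the factor that binds ISRE, and of JAK2, the kinase of the interferon gamma receptor. IRF9 was at 4.69, 3.87 and 4.95 FPKM in Era and at 4.48, 1.67 and 3.5 FPKM in Era+VK, with overlapping groups and a low value in Era+VK replicate 2 (log2 fold change -0.44 and adjusted p 0.41 in limma). JAK2 was at 1.38 to 1.58 FPKM in Era and 1.67 to 1.97 FPKM in Era+VK (log2 fold change 0.20, adjusted p = 0.25 in limma). Its groups did not overlap, as in 15.1% of all genes tested with Era+VK higher.

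CD55 and CD59 are held in the membrane by a GPI anchor, and all 28 genes listed for the synthesis, attachment and remodelling of this anchor were tested. Of these, 0 had an adjusted p under 0.05 in limma and 0 an unadjusted p under 0.05, against 0.618% and 15.8% of all genes tested. The median log2 fold change was 0.02. The largest differences were those of DPM3, a subunit of the enzyme that makes dolichol phosphate mannose (0.31 on the log2 scale in limma, adjusted p = 0.551), and PIGH, which takes part in the first step of anchor synthesis (0.16 on the log2 scale, adjusted p = 0.469). DPM3 was at 2.12 to 2.89 FPKM in Era and at 3.61, 5.05 and 2.02 FPKM in Era+VK, so that its groups overlapped.

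Among all genes tested, the profile over the 6 libraries most like that of CD59 was that of CIAPIN1 (Pearson r = 0.993 of log2(FPKM + 1)), that most like CLU was MAPRE2 (r = 0.995), and that most like CD46 was TRAM2 (r = 0.989). These values describe 6 libraries that share a cell line and carry no test, and 309 genes had an r over 0.9 with CLU. MAPRE2 was at 10.12, 9.34 and 9.97 FPKM in Era and at 12.03, 11.81 and 10.97 FPKM in Era+VK, in the same order of groups as CLU.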

How the data were processed

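Each library has a deposited table of FPKM, rounded to 2 decimals, with Ensembl identifiers, symbols and GO and KEGG terms. The submitters' processing notes name cutadapt, HISAT2 and StringTie 2.1.6 and a mouse genome build, while the identifiers in the files are human. The annotation, the strand setting and any filter are not given in the sources used here. FPKM carry no depth: over single-exon genes, the concentration on whole reads was at most 0.254 (1 would mean whole reads throughout), so no counting error is given and no count model was used.

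The 11981 genes that averaged 1 FPKM or more were compared between Era+VK and Era with limma 3.58.1 (R 4.3.3, empirical Bayes with trend) on log2(FPKM + 1). P-values were adjusted by Benjamini-Hochberg, and an adjusted p under 0.05 was called. Exact permutation tests were run in scipy 1.17.1. Positions are from GENCODE 29 (GRCh38), matched by identifier, since the files name no human build. Promoters are from RefSeq (GRCh38.p14).

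The rule for the members uses symbols and no measured value, but the members and lists were chosen with earlier results of these data known. Named genes are the 9 members, other complement genes averaging 1 FPKM or more, and markers at 1 FPKM or more in any library. Of the signal and anchor lists, called genes or else the 2 largest differences are named. The gene most like each of the 3 highest members is named too. Further complement genes under 1 FPKM were added after their values were seen. Some genes that these rules name are counted in the lists, but their values are not reported here. Alternatives were a pseudocount of 0.1, no filter, 1 FPKM in every library, quantile normalization, rescaling to an equal total with or without mitochondrially encoded genes, the replicate number as a block, each library left out, and Era+VK replicate 1 alone against Era.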

Additional observations from a re-analysis of the deposited data

How the results depend on the processing

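No member and no other complement gene was called (count of 0 in limma for each) under any of the 14 alternatives, and 117 of the 126 values of single members kept their sign. Complement genes with a mean under 1 FPKM, among them CFI and CFB, were tested with no filter alone, if at all. In that fit 1 of 31325 genes was called, so the count of 0 says little about these low genes. CLU stayed between 0.24 and 0.35 on the log2 scale, with an adjusted p in limma of 0.0784 to 0.288. The exceptions in sign were the membrane regulators. CD46 was at -0.031 after quantile normalization, at -0.0015 after rescaling without mitochondrially encoded genes, and between -0.025 and 0.015 with 1 library left out. CD59 was at -0.081 in Era+VK replicate 1 alone against Era and between -0.029 and 0.077 with 1 library left out, and CD55 between -0.070 and 0.032. With 1 library left out, C3 lay between -0.20 and -0.09 (the latter without Era+VK replicate 1), C1R between 0.13 and 0.26, C1S between 0.03 and 0.11 (lowest without Era+VK replicate 2, highest without replicate 3), CFI between 0.03 and 0.20 (lowest without Era+VK replicate 1, highest without replicate 3) and CFB between -0.10 and -0.02 (the latter without Era replicate 1). The 74 genes called in limma over all genes tested became 1 with no filter, 122 with at least 1 FPKM in every library, 113 after quantile normalization and 35 with Era+VK replicate 1 alone, a fit in which the Era libraries alone give the spread. With 1 library left out there were between 2 and 70, namely 2, 2 and 5 without Era replicates 1, 2 and 3, and 42 without Era+VK replicate 3. The replicate number as a block gave 42 genes, with an adjusted p of 0.16 for CLU. Deviations of same-numbered libraries correlated at 0.07, 0.10 and 0.02, and 2 of the 3 Era libraries correlated best with their own number, so the numbers were not taken to pair the libraries. The cause of these changes was not tested. The depth behind each value is unknown, also for CFI and CFB, which lie under 1 FPKM.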

Other observations

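The KEGG annotation in the files places the 9 complement genes in a term of 62 complement and coagulation genes. Of these, 23 were tested and 0 had an adjusted p under 0.05 in limma, against 0.618% of all genes tested. At an unadjusted p under 0.05 in limma there were 12, against 15.8% of all genes tested. Of the 12 tested genes of this term outside the complement lists, which act in coagulation, fibrinolysis and their receptors, 8 were lower in every Era+VK library than in every Era library and 0 were higher in every one, while 7.04% of all genes tested were lower in this way. None of the 7 tested complement members was, a count near that share for so few genes. C4BPB, a tested complement gene of the term that is not a member, was lower in every Era+VK library. Of all 23 tested genes of the term, 9 were lower in this way and 2, CLU and VTN, were higher in every one. Among all genes tested the shares were 7.04% lower and 15.1% higher. Of the 8 lower genes outside the complement lists, F3, the tissue factor that starts coagulation, was at 184.05, 185.29 and 200.06 FPKM in Era. In Era+VK it was at 169.89, 161.52 and 167.65 FPKM (log2 fold change -0.19 and adjusted p 0.15 in limma). The term was looked up after the data were examined, and the difference between its complement and coagulation genes was not tested.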
